A study of Mus musculus with 6 samples.

Results

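The 9 genes described here encode the hemidesmosome, its partners in the cell membrane and 2 chains of its ligand laminin-332. They were taken by name from the 50600 genes in the files: Col17a1, Itga6, Itgb4, Itga3, Cd151, Dst, Plec, Lama3 and Lamb3. Poly(A) RNA was sequenced from the primary epithelial cells of the outer thymus, the cortical thymic epithelial cells (cTECs). There were 3 libraries from mice lacking Psmb11 (knockout, KO in the plots; strain B6.B6CB-Psmb11tm1Smta, Psmb11-/-) and 3 from wild-type mice (WT in the plots; B6.B6CB-Psmb11tm1Smta, Psmb11+/+), with replicates A, B and C in each. All mice were 8 to 10 weeks old, and the gate by which the cells were isolated is not given in the sources used here. The comparison asks how these genes differ in cTECs without Psmb11, the gene of the thymus-specific proteasome subunit β5t. Whether each library came from its own mice is not given, so the error measures only the spread between these libraries, which may be technical. The set was built around Col17a1, which was chosen by its p and CPM difference in the knockout against wild-type comparison, where it was among the clearest rises. The differences of the members between knockout and wild type are therefore a description and are given without p-values.

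A hemidesmosome is the junction that anchors a basal epithelial cell to the basement membrane beneath it. The integrin pair α6β4 and the transmembrane collagen XVII span the membrane, the plakin proteins plectin and BPAG1 tie them to keratin filaments inside the cell, and laminin-332 outside the cell is the ligand of the integrin. Laminin-332 is a trimer that holds an α3 and a β3 chain, encoded by Lama3 and Lamb3. Integrin α3β1, which also binds laminin-332, works with the tetraspanin CD151 and links instead to actin. In the thymus, epithelial cells beneath the capsule and around vessels lie on a basement membrane, while most others form a network through which thymocytes move.

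Levels within a gene are given as CPM, read counts scaled to the size of the library after TMM normalization, which corrects library sizes for composition. A gene was called when its Benjamini-Hochberg adjusted p was below 0.05 in the edgeR quasi-likelihood test over all 16938 genes tested. In that test 23.6% of genes were called, 12.5% higher and 11.1% lower in knockout. All 9 members passed the filter on low counts and were tested. Of them 2 were called higher (Col17a1 and Itga6), 1 was called lower (Cd151) and 6 were not called. The median log2 fold change of the members, knockout over wild type, was 0.01, and that of all genes tested was -0.00. In CPM, all knockout libraries were above all wild-type libraries for 3 members (19.2% of all genes tested) and below them for 1 member (20.0%), so that 4 members had no overlap (39.3%). Because the comparison chose the set, nothing is read from these counts. Col17a1 stood apart from the other 8, whose log2 fold changes lay between -0.12 and 0.18. The set was built around Col17a1 for its rise, so this contrast too is only a description.

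The labels were checked on Psmb11, which had 67, 36 and 41 counts in knockout replicates A, B and C and 8293, 9297 and 10027 counts in the wild-type ones. Gene counts per library ran from 34265035 to 39224292. All 9 cTEC markers, which include Prss16, Ccl25 and Foxn1, were detected and called lower in knockout, and their summed level was 5347 to 6298 CPM in knockout and 8614 to 9141 CPM in wild type. For 4 genes of all thymic epithelium, such as Epcam and Krt8, the sum was 4127 to 4243 CPM in knockout and 4874 to 5090 CPM in wild type (1 called higher, 2 lower). Epcam was the gene called higher, and Krt8 and Krt18 were those called lower. Summed markers of other cells were higher in knockout without overlap for medullary thymic epithelium (2227 to 2506 against 1678 to 1951 CPM, 5 of 9 called higher), fibroblasts and pericytes (1249 to 1344 against 867 to 975 CPM, 7 of 9), dendritic cells and macrophages (61.5 to 69.5 against 32.0 to 34.9 CPM, 6 of 9) and Schwann cells (49.1 to 52.1 against 37.5 to 39.9 CPM, 1 of 4). Thymocyte markers (34.3 to 67.4 against 37.4 to 46.1 CPM) and endothelial markers (13.3 to 43.7 against 12.3 to 34.5 CPM) overlapped, knockout replicate A was the highest library for both, and edgeR called 0 of 9 and 0 of 6 tested (also 0 at an unadjusted p below 0.05, and 0 with DESeq2 and limma). On the fibroblast and pericyte list Dcn had the highest level, at 778 CPM in knockout and 607 CPM in wild type. Pdgfra (3.48 against 3.37 CPM) and Pdgfrb (3.63 against 3.41 CPM) overlapped between the genotypes and were the 2 not called. No marker on these lists was at 0 counts in all libraries. In RNA from a cell population, fewer cells of a type and less RNA per cell cannot be told apart, and the part of these other cells in the results below was not tested.

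Sequences before the start of a gene were at hand for 5 members (RefSeq, GRCm38.p6). The other 4 members are Itga6, Itgb4, Plec and Lama3. Sequences are shown for Col17a1, the member with the rise that drew attention to the set, and for Cd151, the member called lower, on the strand of each gene. Col17a1 is on the minus strand of chromosome 19, and the stretch shown is chr19:47692095-47692292. Cd151 is on the plus strand of chromosome 7, and the stretch shown, at the first of its 2 RefSeq starts, is chr7:141467112-141467309. Each stretch of 198 bases starts 250 bases before the RefSeq start. Capitals mark the TATA box motif TATAAA; the AP-1 motif TGANTCA and the GC box motif GGGCGG were searched in the same way, on both strands, and no hits of these motifs overlapped.
Col17a1: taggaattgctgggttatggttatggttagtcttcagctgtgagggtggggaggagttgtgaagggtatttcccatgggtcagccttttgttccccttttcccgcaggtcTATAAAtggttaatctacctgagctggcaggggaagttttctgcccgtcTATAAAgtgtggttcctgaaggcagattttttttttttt
Cd151: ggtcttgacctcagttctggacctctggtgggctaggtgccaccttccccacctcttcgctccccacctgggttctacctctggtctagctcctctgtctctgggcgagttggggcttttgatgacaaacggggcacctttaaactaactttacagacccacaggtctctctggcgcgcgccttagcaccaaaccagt
The Col17a1 stretch held 2 copies of TATAAA, 140 and 91 bases before the RefSeq start, which are 88 and 39 bases before the start in the GENCODE annotation, itself 52 bases further upstream. It held neither TGANTCA nor GGGCGG, and the Cd151 stretch held none of the 3 motifs. Among the members whose sequences were at hand but are not shown, none held TATAAA or TGANTCA. At 2 RefSeq starts each, Itga3 held 2 and 1 copies of GGGCGG, Dst held 3 and 0, and Lamb3 held none. Among 32851 stretches at the same distance from RefSeq starts, 9.08% held TATAAA, 5.50% held TGANTCA and 24.3% held GGGCGG. GC content was 45.5% for Col17a1 and 57.1% for Cd151, with a median of 51.5% over all stretches. A motif match describes the letters only.

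Col17a1 encodes collagen XVII, the transmembrane collagen of the hemidesmosome (ENSMUSG00000025064, chromosome 19, 47646344 to 47692094, minus strand, GRCm38). It had 5482, 5859 and 5697 counts in knockout replicates A, B and C and 2880, 3108 and 3216 counts in wild-type replicates A, B and C. On the CPM scale these were 148, 159 and 167 in knockout and 83.6, 86.6 and 82.3 in wild type. Every knockout library lay far above every wild-type library, and the gap between the groups was wider than the spread within either. The level was 158 ± 9.53 CPM in knockout and 84.2 ± 2.19 CPM in wild type (SD, n = 3 each), a 1.87-fold difference. The log2 fold change was 0.91 with a standard error (SE) of 0.04, an approximate value derived from the test statistic. It lay between 0.86 and 0.95 when each library was left out in turn, 0.95 being the value without knockout replicate A and 0.86 that without knockout replicate C. By the p of the test, which drew the gene into the set, it ranked 3 among all genes tested, and by log2 fold change it ranked 774.

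**Figure D1:**
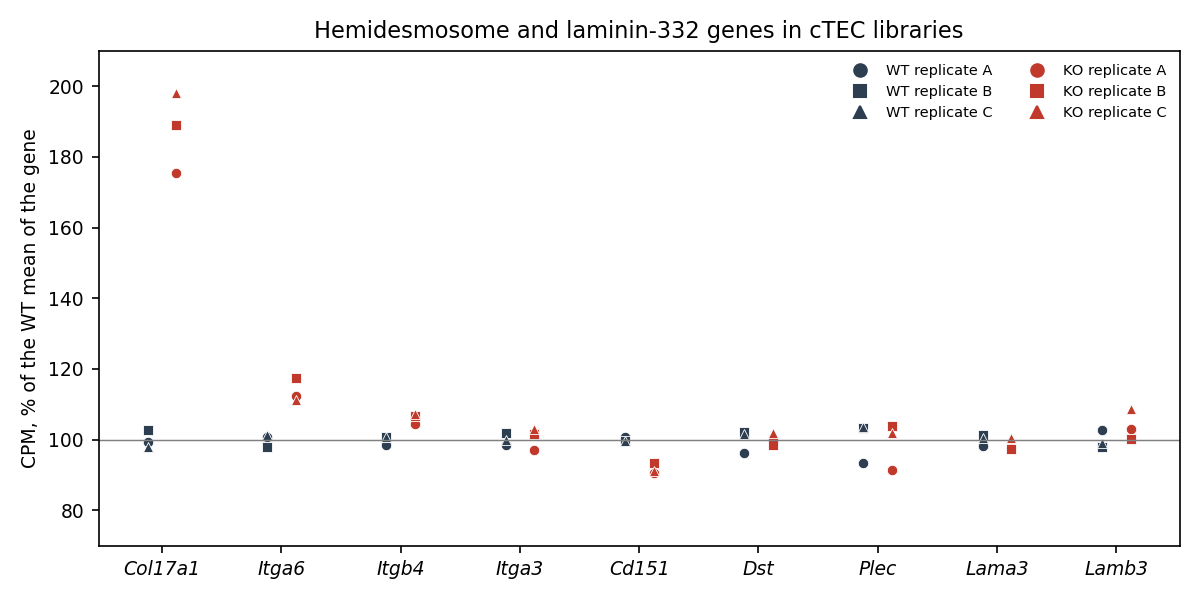
CPM of each member in each library as a percentage of the wild-type mean of the gene (y axis), for 3 wild-type libraries (dark) and 3 knockout libraries (red), with a shape for each replicate letter and a line at the wild-type mean. Col17a1 lies far above the line in the 3 knockout libraries (mean 158 CPM against 84.2 CPM in wild type), Itga6 and Itgb4 lie a little above it, Cd151 lies below it, and the other members overlap.

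Itga6 encodes the integrin α6 chain, the partner of β4 in hemidesmosomes and of β1 outside them (ENSMUSG00000027111, chromosome 2, 71745616 to 71858416, plus strand). Its level was 909, 952 and 900 CPM in knockout replicates A, B and C and 815, 793 and 820 CPM in the wild-type ones. The groups did not overlap, and knockout replicate B was the highest library. The mean was 920 ± 27.8 CPM in knockout and 810 ± 14.5 CPM in wild type (SD, n = 3 each), a 1.14-fold difference (log2 0.18, SE 0.04), and it was called without each library in turn (log2 0.16 to 0.20). The rise was thus small beside that of Col17a1. Summed markers of medullary thymic epithelium (2227 to 2506 against 1678 to 1951 CPM) and of fibroblasts and pericytes (1249 to 1344 against 867 to 975 CPM) were higher in the same knockout libraries, and their part in the rise was not tested.

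Itgb4 encodes the integrin β4 chain, which pairs with α6 alone and carries the long tail that binds plectin (ENSMUSG00000020758, chromosome 11, 115974709 to 116008412, plus strand). The values were 1019, 1040 and 1046 CPM in knockout replicates A, B and C and 962, 983 and 982 CPM in the wild-type ones. All knockout libraries were above all wild-type libraries, by a narrow margin. The means were 1035 ± 14.1 and 976 ± 11.7 CPM (SD, n = 3 each), a 1.06-fold difference (log2 0.09, SE 0.03), and the gene was not called. It was called higher with DESeq2 (log2 0.09) and when only genes of at least 5 CPM were tested (log2 0.10). Exons of the noncoding gene B230344G16Rik overlap Itgb4 on the other strand.

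Itga3 encodes the α3 chain of the other laminin-332 receptor, integrin α3β1 (ENSMUSG00000001507, chromosome 11, 95044474 to 95076801, minus strand). The levels were 398 to 423 CPM in knockout and 404 to 418 CPM in wild type, so the wild-type range lay inside the knockout range. The log2 fold change was 0.01 (SE 0.04), and the call was absent under all 17 alternatives. Itgb1, the partner chain of α3, had 461 ± 11.4 CPM in knockout and 439 ± 4.94 CPM in wild type (SD, n = 3 each; log2 0.07, edgeR adjusted p = 0.150).

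Cd151 encodes the tetraspanin that binds the laminin-binding integrins (ENSMUSG00000025510, chromosome 7, 141467392 to 141471473, plus strand). It had 202, 209 and 204 CPM in knockout replicates A, B and C and 225, 223 and 222 CPM in the wild-type ones. Here the knockout libraries were all below the wild-type libraries. The means were 205 ± 3.63 and 223 ± 1.67 CPM (SD, n = 3 each), 1.09-fold lower in knockout (log2 -0.12, SE 0.03). The call held without each library in turn (log2 -0.14 to -0.12) and was absent with limma on TPM, where the log2 difference was -0.08. Exons of the noncoding gene Gm10575 overlap Cd151 on the other strand.

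The plakin genes were not called. Dst encodes BPAG1, a plakin of which the epithelial form ties hemidesmosomes to keratin (ENSMUSG00000026131, chromosome 1, 33908225 to 34308661, plus strand) and had 65552 to 78599 counts per library. Its level was 1950 to 2018 CPM in knockout and 1903 to 2022 CPM in wild type, with a log2 fold change of 0.00 (SE 0.04). Plec encodes plectin, a plakin that also links other filaments (ENSMUSG00000022565, chromosome 15, 76170974 to 76232574, minus strand). It had 706, 803 and 788 CPM in knockout replicates A, B and C and 722, 797 and 799 CPM in the wild-type ones. Replicate A was the lowest library in both genotypes, and Plec had the largest SE of the 9 members (log2 -0.01, SE 0.05). When each library was left out in turn, its log2 fold change lay between -0.06 and 0.04, the upper value being that without knockout replicate A. Parp10 overlaps Plec on the same strand, and reads shared by both genes may be missing from either count.

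Neither laminin chain of the set was called. Lama3, the α3 chain (ENSMUSG00000024421, chromosome 18, 12333819 to 12583013, plus strand), had 713 to 736 CPM in knockout and 720 to 741 CPM in wild type (log2 -0.02, SE 0.03). Lamb3, the β3 chain (ENSMUSG00000026639, chromosome 1, 193207699 to 193343878, plus strand), had 526 to 570 CPM in knockout and 514 to 539 CPM in wild type (log2 0.06, SE 0.04). Nor was either called under any of the 17 alternatives.

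Lama3 has 2 transcripts in the deposited RSEM files, of 5551 and 10548 bases, the long one encoding the larger α3B chain. RSEM gives the mean length of a gene's transcripts weighted by their abundance, so for a gene with 2 transcripts this length fixes their shares. The mean length was 5660 to 5680 bases in knockout and 5669 to 5691 bases in wild type. The long transcript thus made up 2.58%, 2.19% and 2.36% of Lama3 transcripts in knockout replicates A, B and C, against 2.36%, 2.79% and 2.45% in the wild-type ones. Lama3 was almost all of the short form in both genotypes, and the ranges overlapped. For Dst, whose annotated forms are many, the mean length was 9162 to 9272 bases in knockout and 9141 to 9288 bases in wild type, again with overlap.

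To compare levels between genes, TPM was used, the RSEM abundance scaled for transcript length. In wild type the highest member was Itga6 (419 ± 4.56 TPM), followed by Dst (371 ± 11.7), Itgb4 (315 ± 5.74), Cd151 (251 ± 5.38), Lamb3 (223 ± 4.80), Lama3 (208 ± 4.80), Itga3 (147 ± 3.75), Plec (92.3 ± 5.98) and Col17a1 (28.7 ± 2.34; SD, n = 3 each). No 2 of these neighbours overlapped among the wild-type libraries. Itgb1, the partner chain of α3, lay at 212 ± 2.72 TPM, between Lamb3 and Lama3 and overlapped Lama3. Col17a1 was thus the scarcest transcript of the set by a wide margin. In knockout it reached 52.4 ± 4.21 TPM and was still last, while Cd151 (237 ± 7.46) and Lamb3 (236 ± 10.0) overlapped. Its share of the summed TPM of the 9 members was 1.29% to 1.49% in wild type and 2.23% to 2.55% in knockout, and that sum was 2031 to 2075 TPM in wild type and 2158 to 2215 TPM in knockout.

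**Figure D2:**
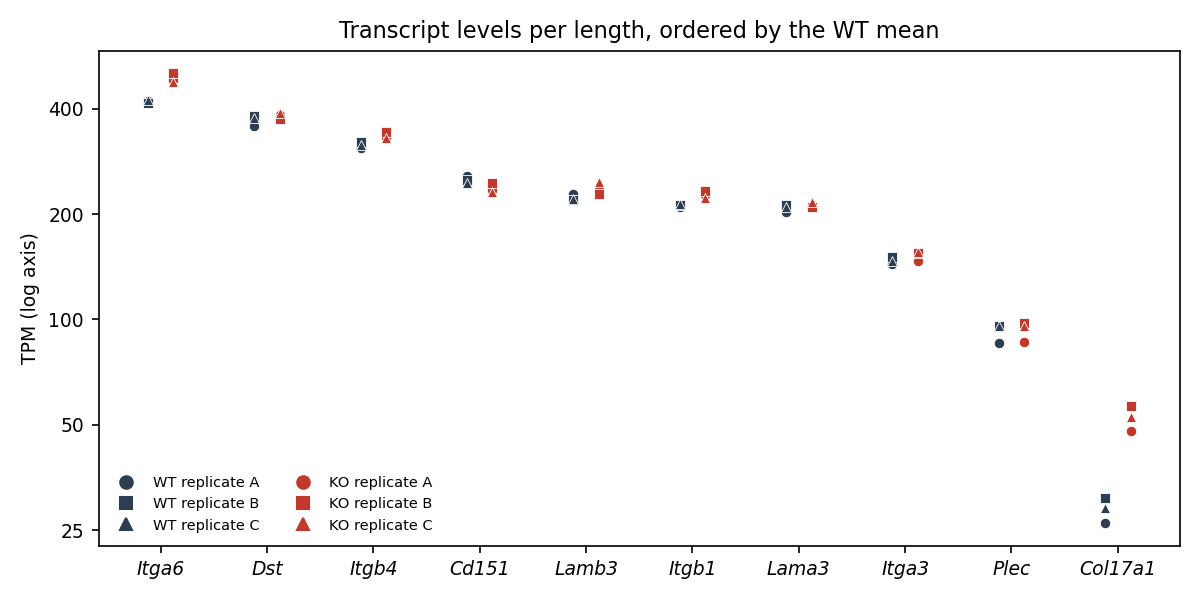
TPM on a log axis (y axis) of the 9 members and of the partner chain Itgb1 in each library, ordered by the wild-type mean. Col17a1 is the lowest in both genotypes, at 28.7 TPM in wild type and 52.4 TPM in knockout, and Itga6 is the highest, at 419 and 489 TPM.

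Ratios of TPM within a library describe how the partners stood to each other. The ratio of Itga6 to Itgb4 was 1.46 ± 0.0104 in knockout and 1.33 ± 0.0351 in wild type, and that of Col17a1 to Itgb4 was 0.156 ± 0.0101 in knockout and 0.0908 ± 0.00580 in wild type (SD, n = 3 each). Both were higher in all knockout libraries than in any wild-type library. The ratio of Lama3 to Lamb3 was 0.874 to 0.921 in knockout and 0.888 to 0.967 in wild type, and that of Dst to Plec was 3.81 to 4.45 in knockout and 3.93 to 4.19 in wild type. These 2 ratios overlapped. The ratio of Itga3 to Cd151, partners in the membrane, was 0.642 ± 0.0259 in knockout and 0.587 ± 0.0233 in wild type. It was higher in all knockout libraries, although Itga3 alone was not called. In TPM each of these genes overlapped between the genotypes. Cd151 had 245.96 TPM in knockout replicate B and 245.69 TPM in wild-type replicate C. Itga3 had 147 to 156 TPM in knockout and 144 to 151 TPM in wild type.

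Genes of 8 related lists were taken from the same test. They show where the change in collagen XVII stood among its neighbours, and their p-values are adjusted over all genes tested. The lists were drawn up with earlier results of these data known. The background share called is 23.6% for each.

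Of 7 other laminin chains tested 3 rose and 0 fell (Lamc3 was below the filter), with a median log2 fold change of 0.11 (0 fell at an unadjusted p below 0.05, and 0 with DESeq2 and limma). Lama1, an α chain of embryonic basement membranes, had 12.4, 10.5 and 10.4 CPM in knockout replicates A, B and C and 3.22, 5.12 and 4.30 CPM in the wild-type ones. This chain was 2.63-fold higher in knockout (log2 1.39, SE 0.15; edgeR adjusted p = 1.22e-05). Lamb2, the β2 chain, rose 1.42-fold, from 66.6 ± 0.718 to 94.6 ± 6.19 CPM (adjusted p = 1.74e-06), and Lama5, the α5 chain of laminin-511, rose by 0.26 on the log2 scale, from 225 ± 7.28 to 270 ± 17.8 CPM (adjusted p = 6.78e-04; SD, n = 3 each). With limma on TPM the rise of Lamb2 was not called (adjusted p = 0.0660), and the list held 2 rises. Lamb1, the β chain of laminin-511, had 982 CPM in knockout and 999 CPM in wild type and was not called, nor were Lamc1, Lama4 and Lama2. The summed fibroblast and pericyte markers, from cells that also make laminins, were higher in the same knockout libraries (1249 to 1344 against 867 to 975 CPM). Of these markers 7 of 9 were called higher, and Pdgfra and Pdgfrb were not called.

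**Figure D3:**
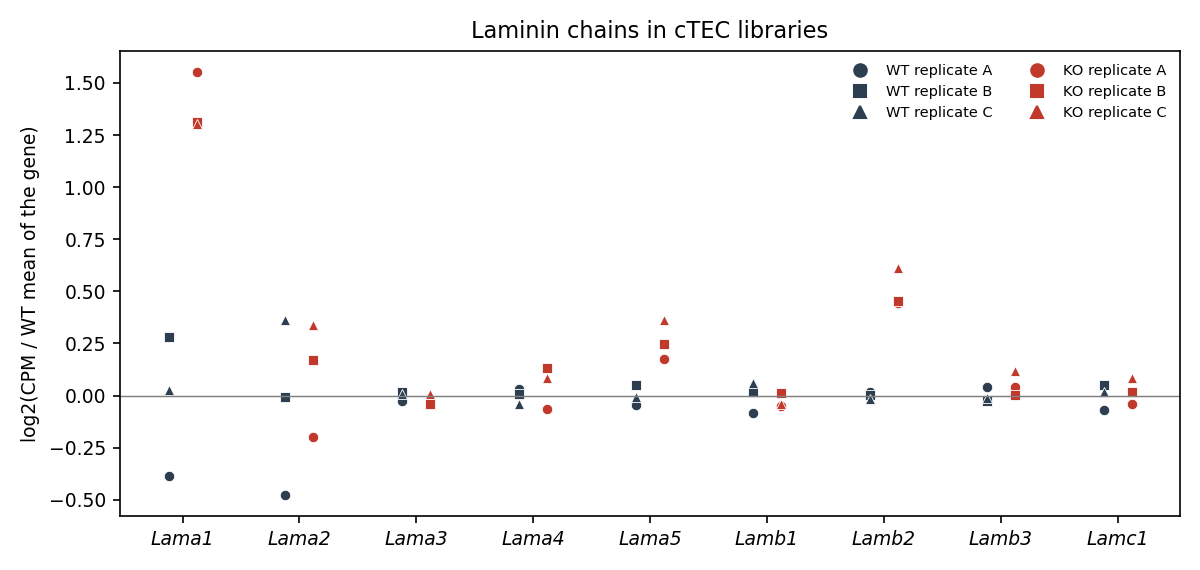
Log2 ratio of CPM to the wild-type mean of the gene (y axis) for 9 laminin chains in each library. Lama1, Lamb2 and Lama5 lie above the wild-type libraries in all 3 knockout libraries (means of 11.1, 94.6 and 270.4 CPM against 4.22, 66.6 and 225 CPM), whereas Lama3 and Lamb3 overlap.

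Of 14 other integrin subunits 5 rose and 0 fell, with a median of 0.20 (0 fell at an unadjusted p below 0.05, and 0 with DESeq2 and limma). Itgb8, a β chain that binds latent TGF-β, had 7.36 ± 0.361 CPM in knockout and 3.88 ± 0.438 CPM in wild type (1.90-fold, edgeR adjusted p = 8.31e-05). Itga1, a collagen receptor chain, had 131 ± 7.14 and 115 ± 3.42 CPM (1.14-fold, adjusted p = 0.00338; SD, n = 3 each). Itga9 and Itgb5 rose 1.36-fold and 1.26-fold (adjusted p = 0.0118 and 0.0356). The fifth, Itgb6, was at 3.22 CPM in knockout and 2.22 CPM in wild type (adjusted p = 0.0470), and kept its call in 1 of 6 fits that left out a library, that without knockout replicate B (0.0587 to 0.220 in the others). It was not called with DESeq2 (0.0708), expected counts (0.0568), no filter (0.0563), no robust option (0.0546) or limma on TPM (0.262). The list held 2 rises with limma on TPM and without wild-type replicate A, and 3 without knockout replicate A, knockout replicate C, wild-type replicate B or wild-type replicate C. Itga9 was lost without knockout replicate C (0.0619), wild-type replicate A (0.0593) or wild-type replicate C (0.0568), and Itgb5 without knockout replicate A (0.10), knockout replicate C (0.0884), wild-type replicate A (0.161) or wild-type replicate B (0.109, all edgeR adjusted p). Itgav and Itgb1 were not called.

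Tetraspanins moved both ways. Of 15 others 6 rose and 4 fell, with a median of 0.09. The 3 rises with the lowest p were of genes below 10 CPM. Tspan13 had 7.20 ± 0.663 CPM in knockout and 3.04 ± 0.634 CPM in wild type (edgeR adjusted p = 3.20e-05), Tspan8 had 9.75 ± 1.55 and 3.78 ± 0.903 CPM (1.13e-04), and Tspan1 had 7.61 ± 0.787 and 3.83 ± 0.752 CPM (1.50e-04; SD, n = 3 each). The 4 falls were small, as for Cd151. Tspan14, a partner of the sheddase ADAM10, was 1.17-fold lower (108 ± 4.96 against 126 ± 3.89 CPM, edgeR adjusted p = 9.01e-04), Tspan3 1.14-fold, Tspan9 1.13-fold and Cd82 1.10-fold. With limma on TPM 4 tetraspanins were called higher and 2 lower with a pseudocount of 1, and 4 and 1 with 0.1. Cd9, a known partner of integrins, rose 1.10-fold (adjusted p = 0.0237) and was lost without knockout replicate B (0.13), wild-type replicate A (0.0807), wild-type replicate B (0.0515) or wild-type replicate C (0.0931). Cd82 was lost without knockout replicate B (0.0945), knockout replicate C (0.108), wild-type replicate A (0.112) or wild-type replicate C (0.0881). Markers of medullary thymic epithelium were higher in the same knockout libraries (2227 to 2506 against 1678 to 1951 CPM).

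Of 8 other plakin and basal keratin genes 4 rose and 1 fell, with a median of 0.35. The 4 rises were the keratins of this list, of the filaments to which hemidesmosomes attach. Keratins did not rise as a group. Krt8 and Krt18, on the list of all thymic epithelium, were called lower. They had 1304 and 1605 CPM in knockout and 1635 and 2098 CPM in wild type (edgeR adjusted p = 9.94e-06 and 2.21e-06). The plakins Ppl (periplakin) and Evpl (envoplakin), named after their values were seen, had 140 to 175 and 23.0 to 27.0 CPM in knockout and 120 to 139 and 14.4 to 22.6 CPM in wild type and were not called (edgeR adjusted p = 0.0804 and 0.123). Both were called higher with DESeq2 (0.0272 and 0.00378), without the filter on low counts (0.0109 and 8.15e-04) and without the robust option of edgeR (0.00791 and 0.0299), which gave 6 rises. Ppl was also called without knockout replicate A (0.00570) or wild-type replicate A (0.0306), and Evpl without wild-type replicate B (0.0116). Krt5 had 3224 ± 57.2 CPM in knockout and 2481 ± 149 CPM in wild type (1.30-fold, edgeR adjusted p = 1.29e-05), and its partner Krt14 had 818 ± 40.8 and 621 ± 31.3 CPM (1.32-fold, 1.67e-05). Krt15 rose 1.68-fold, from 18.1 ± 0.804 to 30.4 ± 4.70 CPM (3.27e-04), and Krt17 rose 1.15-fold, from 906 ± 41.0 to 1044 ± 78.9 CPM (0.0164; SD, n = 3 each). Krt17 was not called without knockout replicate A (0.0516), knockout replicate C (0.0753) or wild-type replicate B (0.0720). The plakin Macf1 fell 1.08-fold (adjusted p = 0.0362), and was called in 1 of the 6 fits that left out a library, that without wild-type replicate A (0.0512 to 0.150 in the others). Desmoplakin (Dsp), the plakin of desmosomes, had 2549 CPM in knockout and 2574 CPM in wild type and was not called. Krt14 is also on the list of medullary markers, whose sum was higher in knockout, as given above. Eppk1, a further plakin, was not analysed here.

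Of 17 other basement membrane and anchoring genes 5 rose and 1, Frem2, fell, with a median of 0.07. Nid1 (nidogen 1, a linker of laminin and collagen IV) rose 1.49-fold, Col4a6 (a collagen IV chain) 1.47-fold, Nid2 (nidogen 2) 1.27-fold and Col7a1 (collagen VII, the anchoring fibril below hemidesmosomes) 1.21-fold, with edgeR adjusted p = 1.09e-04, 3.12e-04, 5.61e-04 and 0.00118. Col7a1 had 253, 259 and 266 CPM in knockout replicates A, B and C and 229, 217 and 197 CPM in the wild-type ones. With limma on TPM it was not called (adjusted p = 0.437). Col4a5 was the fifth rise (1.14-fold, 0.0155) and was lost without knockout replicate B (0.0606), knockout replicate C (0.0673), wild-type replicate A (0.0673) or wild-type replicate C (0.0574). The Frem2 call was absent without knockout replicate A (0.124), knockout replicate B (0.0719), knockout replicate C (0.115) or wild-type replicate C (0.0897). Col4a1 and Col4a2, the main collagen IV chains, were not called, at 996 and 669 CPM in knockout and 931 and 666 CPM in wild type. The sum of the fibroblast and pericyte markers given above was higher in the knockout libraries, although Pdgfra and Pdgfrb were not called.

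Of the other transmembrane collagens Col23a1 was called higher (1.16-fold, edgeR adjusted p = 0.0366) and Col13a1 was not, at 2.55 and 2.20 CPM. Col25a1 was below the filter. The Col23a1 call was lost without knockout replicate B (0.0930), knockout replicate C (0.115), wild-type replicate A (0.127) or wild-type replicate B (0.101), and with limma on TPM neither gene was called.

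Actin-linked focal adhesion genes, which serve α3β1 and other β1 integrins, showed 3 falls and 0 rises among 19, with a median of -0.03 (edgeR; 0 rose at an unadjusted p below 0.05 and 0 with DESeq2 and limma, but Tns4 without knockout replicate A, 6.84e-05, and Ilk with unstranded counts, 0.0200). Parvb, an adaptor that binds the integrin-linked kinase, had 48.3, 47.1 and 44.6 CPM in knockout replicates A, B and C and 70.1, 68.9 and 64.6 CPM in the wild-type ones. It was 1.45-fold lower in knockout (log2 -0.54, SE 0.05; edgeR adjusted p = 1.03e-06). Tns3 and Tns1, tensins that bind β integrin tails, were 1.12-fold and 1.11-fold lower (adjusted p = 0.00526 and 0.0187), Tns1 not without knockout replicate A (0.0621) or wild-type replicate B (0.105). With limma on TPM only Parvb of the 3 was called (0.0540 for Tns3 and 0.270 for Tns1 with a pseudocount of 1). Talin (Tln1), vinculin (Vcl) and the kindlins (Fermt1, Fermt2) were not called. In this list 15.8% of genes were called.

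Of 8 proteases known to process laminin-332 or collagen XVII 4 rose and 1 fell, with a median of 0.08 (Tll1 was below the filter). Bmp1, which trims laminin chains, had 81.0 ± 2.25 CPM in knockout and 69.7 ± 1.90 CPM in wild type (SD, n = 3 each; 1.16-fold, edgeR adjusted p = 9.47e-04). The sheddases Adam10, Adam9 and Adam17, which can release the outer part of collagen XVII, rose 1.10-fold, 1.11-fold and 1.10-fold (adjusted p = 0.0116, 0.0160 and 0.0285). The membrane protease Mmp14 fell 1.07-fold (adjusted p = 0.0315), a call kept in 1 of 6 fits that left out a library, that without knockout replicate A (0.0639 to 0.123 in the others), and lost with upper quartile scaling. Without wild-type replicate A only Bmp1 of the rises was called, with adjusted p = 0.0578 for Adam10, 0.0838 for Adam9 and 0.115 for Adam17. Without wild-type replicate C Adam9 (0.0614) and Adam17 (0.0998) were lost, and Adam17 was also lost without knockout replicate B (0.0643) or knockout replicate C (0.107). With limma on TPM 2 rises and 0 falls were called (1 fall at an unadjusted p below 0.05).

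**Figure D4:**
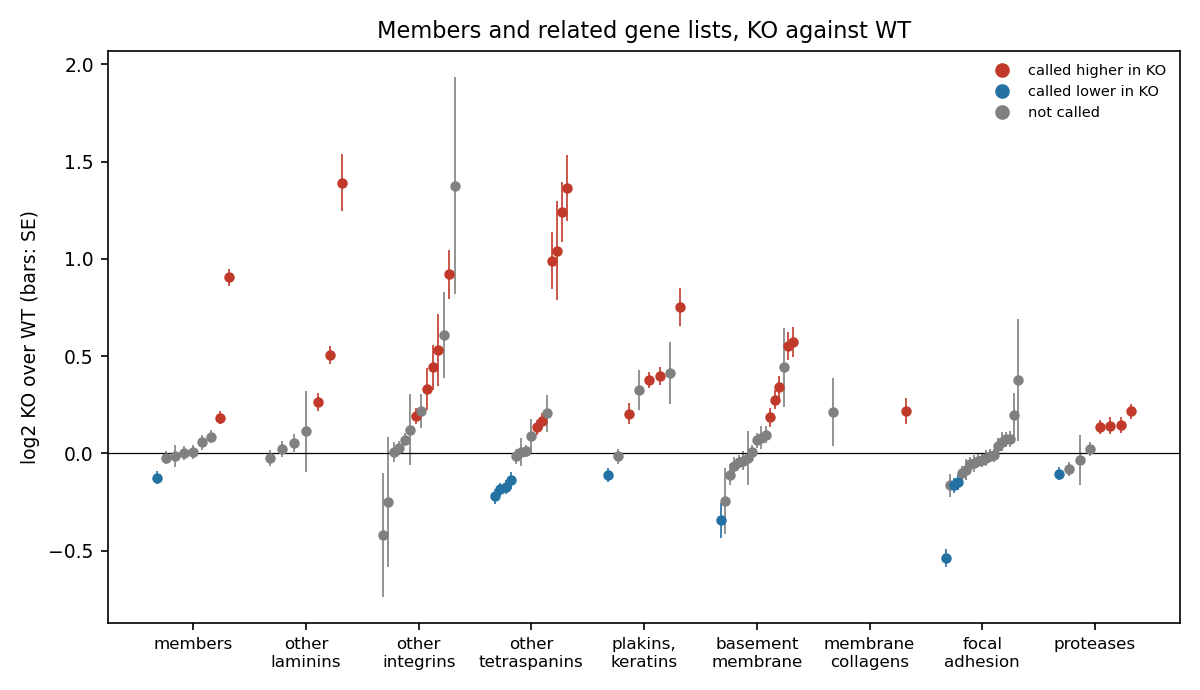
Log2 fold change of knockout over wild type (y axis, bars: SE) for each tested gene of the members and of 8 related lists, coloured by its call. Among the members Col17a1, around which the set was built for its rise, lies at 0.91, and the other 8 lie between -0.12 and 0.18.

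The genes whose profile over the 6 libraries was most like that of Col17a1 were sought among the 11449 tested genes whose mean reached 5 CPM in either genotype. Likeness was the root mean square difference of log2 CPM, with a small constant added to CPM, after each gene was centred on its mean. A small value means that the libraries stood apart by similar amounts on that scale. The constant reduces the differences of genes at low CPM. The 5 nearest were Slc34a2 (0.0161), Plagl1 (0.0481), Nfatc2 (0.0496), Nectin4 (0.0546) and Myh14 (0.0629). Slc34a2, a phosphate transporter, had 6.04, 6.43 and 6.85 CPM in knockout replicates A, B and C and 3.16, 3.34 and 3.22 CPM in the wild-type ones. Its log2 fold change from edgeR was 0.99, against 0.91 for Col17a1. Nectin4, a cell adhesion molecule, had 17.6 ± 0.476 CPM in knockout and 9.69 ± 0.212 CPM in wild type, and Myh14, a nonmuscle myosin heavy chain, had 84.5 ± 6.24 and 43.4 ± 2.95 CPM (SD, n = 3 each). None of the related lists holds any of the 5, but with lists this short among 11449 genes nothing is read from that. The ranking over 6 libraries in 2 groups is a description with no test.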

How the data were processed

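RNA-seq libraries of cTECs, 3 knockout and 3 wild-type, were compared. Per the submitters' processing notes, bcl2fastq 2.17, STAR 2.5.1b and RSEM 1.2.28 were used, with build GRCh38, a human build, whereas the gene identifiers are mouse Ensembl identifiers. Symbols and positions came from GENCODE M21 (GRCm38), by identifier without version (50376 of 50600 matched), so positions hold for that annotation. The deposited read counts are raw reads per gene; the column for the strand that held 95.5% to 95.7% of gene counts was used. Rows that name no gene held 18.4% to 19.8% of reads and were left out. The authors also deposited RSEM expected counts, rounded here for an alternative, and TPM, the RSEM abundance scaled to the same total in each library. They deposited a weighted mean transcript length per gene in the same files.

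Genes passing filterByExpr were tested with edgeR 4.0.16 (quasi-likelihood, robust, TMM, no block) in R 4.3.3. The robust option was not part of the fixed design and was set, with the data seen, to match an earlier analysis of these data. The SE is the size of the log2 fold change over the square root of F. The variance between libraries of a genotype was 5.19 to 9.34 times that of counting, so no library was a copy of another. Gene counts per library were 34265035 to 39224292, and the lowest count of a member was 2880. For genes with many counts, the spread between 3 libraries per genotype thus limits the precision more than depth does. Alternatives were RLE and upper quartile scaling, DESeq2 1.42.0, no filter, a minimum of 5 CPM, expected counts, limma 3.58.1 on log2(TPM + 1) and log2(TPM + 0.1), unstranded counts, a replicate block, each library left out and, added after the data were seen, edgeR without its robust option. Plots: matplotlib 3.10.9, Python 3.11.15.

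The members and the related lists were chosen with earlier results of these data known. Genes named are the 9 members, Psmb11, up to 4 called genes of each related list by increasing p, or, where none was called, 2 with the highest TPM, and the 5 genes nearest in profile to Col17a1. Others, such as the partner chain Itgb1 or abundant genes that were not called, were named after their values were seen. One item of the lists is not reported here.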

Additional observations from a re-analysis of the deposited data

Results flagged for a closer look

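Reads on the strand opposite to the gene were outside the comparisons, and at 2 members they were above the wild-type libraries in all knockout libraries, as they were for 5% of all 16938 genes tested and for 6.32% of the 8060 with a mean of at least 10 such counts. At Col17a1 they reached 2.11 ± 0.373 CPM in knockout and 1.32 ± 0.138 CPM in wild type (SD, n = 3 each), or 63, 81 and 83 counts in knockout replicates A, B and C and 50, 48 and 46 counts in the wild-type ones. At Itga6 they reached 5.19 ± 0.640 CPM in knockout and 4.43 ± 0.228 CPM in wild type. Over both genotypes they were 1.14% to 1.71% of the reads on both strands at Col17a1 and 0.513% to 0.653% at Itga6. Their ratio of knockout to wild type was 1.59 at Col17a1 and 1.17 at Itga6. For reads on the strand of the gene it was 1.87 and 1.14.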

How the results depend on the processing

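Under 17 alternatives Col17a1 was called in 17 (log2 0.85 to 0.95), Itga6 in 17 (0.16 to 0.22), Cd151 in 15 (-0.14 to -0.08) and Itgb4 in 2. Itga3, Dst, Plec, Lama3 and Lamb3 were called in none. With limma on TPM, 0 members were called lower at either pseudocount (1 at an unadjusted p below 0.05; edgeR and DESeq2 called 1), and 1169 genes were called higher and 758 lower with a pseudocount of 1, against 1119 and 738 with 0.1; the cause was not tested. Without 1 library the genes called higher numbered 1476 to 1917 and those called lower 1239 (without wild-type replicate C) to 1744, against 2113 and 1876 with all libraries. In every fit that left out a library the members called were 2 higher and 1 lower. With the replicate letter as a replicate block, 2191 genes were called higher and 1906 lower, and the members called were again Col17a1, Itga6 and Cd151. Of the genes of the related lists, Itgb6 was not called under the block (0.0556), while Itgb3 (0.00348), Evpl (0.00267) and Tln2 (0.0398) were. Deviations of libraries with the same letter correlated at -0.0177, 0.0948 and -0.0395 (A, B and C), and knockout replicates A and C correlated best with another letter, so the letters gave no sign of pairing. No scaling moved the median of all genes by more than 0.03 on the log2 scale. With DESeq2 and with a minimum of 5 CPM the members called higher were 3, Itgb4 being the third. The lowest count of a member was 2880, whereas a related gene such as Itgb6 had 68 to 147 counts per library, which limits its precision.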
